A study of Mus musculus with 15 samples.

Results

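The genes described here are 46 protein-coding genes of autophagy, the lysosome and mTOR signalling, taken as a named list out of 21755 protein-coding genes on the autosomes and chromosome X. H3K4me3 was mapped by PAT-ChIP-seq, which immunoselects chromatin from archived, paraffin-embedded tissue, in the livers of 15 C57BL/6 females from 6 litters with no genetic alteration, 3 mice on each of 5 diets and 1 library per mouse. The mice were placed on a diet as young adults, kept on it for most of a year, and are given an age of 12 months in the sample labels. The groups were a standard diet ad libitum (SD), caloric restriction on the standard formula (CR), a high-fat diet ad libitum (HF), a yellow corn-based diet ad libitum (YD) and a purple corn-based diet ad libitum (RD, the red diet of the labels). In YD and RD the maize of the standard chow was replaced by seed of near-isogenic corn hybrids, of which the purple one carries anthocyanins and the yellow one none.

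For each mouse there was 1 list of enriched regions, called islands after the SICER2 caller that made them. A gene was counted as marked in a library when an island lay within 1 kb of any of its annotated transcription start sites (TSSs). For each gene and library the width of the widest such island in bp was taken. The place of the score of the highest-scoring such island within its own list was also taken. The score place is a percentile, from 0 for no island or the lowest score to 100 for the highest, and is called the score rank. The lists held 7825 to 33752 islands from libraries of 5589269 to 15449854 reads, numbers inferred from the island scores. They held islands at 5 to 8 of 8 hepatocyte markers in 14 libraries and at 4 of 8 in RD mouse 3. Lists of markers of other liver cells had at most 1 of 6 lymphocyte and 2 of 5 cholangiocyte markers in any library, but up to 6 of 6 sinusoidal endothelial, 4 of 8 Kupffer cell and 4 of 6 stellate cell markers, all of these highest in HF mouse 1. In whole liver, a change in the number of cells of a type and a change in the mark per cell cannot be told apart.

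Autophagy is the enclosure of cytoplasm in a double-membraned vesicle, the autophagosome, and its delivery to the lysosome for digestion. It is started by the ULK1 kinase complex and a PI3-kinase complex around BECN1, fed with membrane by ATG9A, ATG2 and the WIPI proteins, and carried on by ubiquitin-like conjugation reactions that attach ATG8 proteins such as LC3 to the growing membrane. The mTOR kinase complex 1, active when amino acids and insulin are plentiful, restrains ULK1 and keeps the transcription factors TFEB and TFE3 in the cytoplasm, away from the lysosomal and autophagy genes that they activate. In liver the pathway supplies amino acids and breaks down stored lipid between meals. H3K4me3 is found on nucleosomes around the start sites of active or poised promoters, so an island at a gene describes its promoter and not its transcript level.

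These promoters were marked in most livers. Of the 46 genes, 17 had an island in all 15 lists, 23 in 10 to 14 lists, 5 in 6 to 9 lists and 1, Map1lc3a, in 2 lists. None was without an island in every list. The 17 genes marked everywhere were Atg7, Atg9a, Atg12, Atg13, Ulk1, Rb1cc1, Map1lc3b, Gabarap, Gabarapl1, Gabarapl2, Sqstm1, Lamp1, Lamp2, Ctsa, Ctsb, Ctsd and Ctsl. They made up 37.0% of the list, where 15.8% of the 13044 protein-coding genes with an island in any list were marked in all 15. Among genes marked in all 15 lists, the median of the median widths was 2200 bp in these 17 genes and 2400 bp in 2059 protein-coding genes, and the median score rank was 88.1 and 88.8, so their islands were close to those of such promoters in width and in score rank, a measure that itself grows with width.

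The number of marked genes differed by diet in the same order as over the whole genome. The SD mice had 42, 40 and 34 of the 46 genes marked (mice 1, 2 and 3, in that order here and below), the CR mice 41, 43 and 45, and the HF mice 46, 43 and 45. The YD mice had 29, 35 and 20, and the RD mice 36, 43 and 34. Every YD mouse had fewer than every CR and HF mouse, while the highest YD mouse passed the lowest SD and RD mice, at 35 against 34. The mean of the SD mice was 38.7 ± 4.16 genes (± standard deviation here and for the role groups, n = 3), and the CR mice averaged 43 ± 2, the HF mice 44.7 ± 1.53, the YD mice 28 ± 7.55 and the RD mice 37.7 ± 4.73. Of the 13044 ever-marked protein-coding genes, 66.1% had an island in SD and 72.4% in CR, with 85.4% in HF, 38.0% in YD and 52.1% in RD. The share of the 46 genes was 84.1%, 93.5%, 97.1%, 60.9% and 81.9% in the same order, above that of ever-marked genes in each diet. The most deeply read library by the inferred read numbers, YD mouse 1 with 15449854 reads, had the shortest list and 29 of the 46 genes marked. No test was made of a count over the 46 genes, which were chosen as a list.

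**Figure D1:**
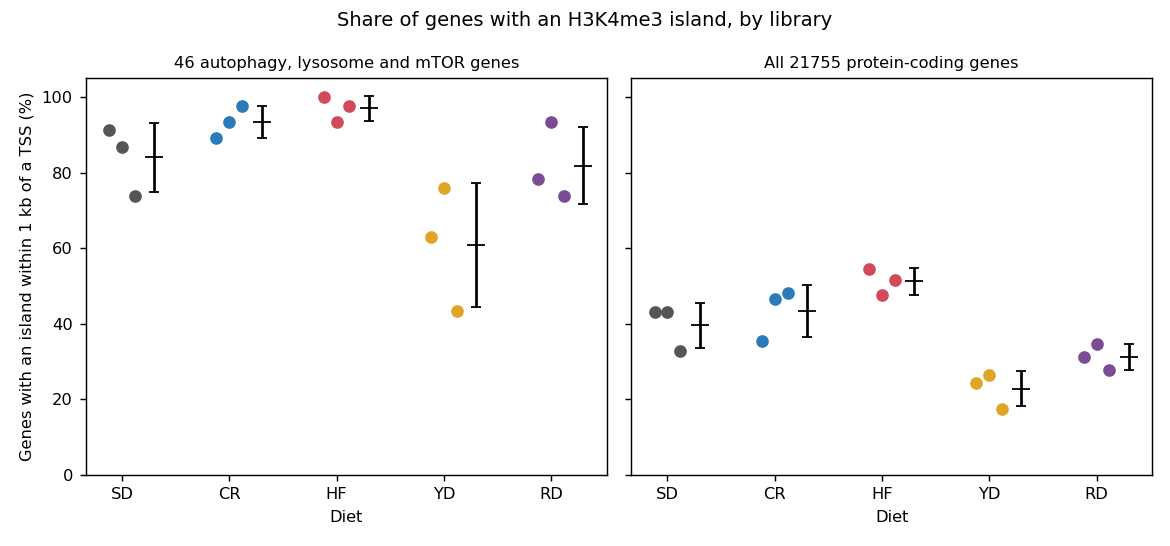
Share of genes with an H3K4me3 island within 1 kb of a TSS (y axis, %) in each library, by diet (x axis), for the 46 genes (left) and all 21755 protein-coding genes (right). Each point is 1 mouse and the bar with whiskers is the mean ± SD of 3 mice. The YD mean is lowest in both panels, and the YD mice had 43.5% to 76.1% of the 46 genes marked, while the HF points lie between 93.5% and 100% on the left.

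By role, the 5 mTOR genes were all marked in each of the 3 CR and 3 HF mice, against a mean of 3.67 ± 1.53 genes in SD, 1.67 ± 1.53 in YD and 2.33 ± 1.53 in RD. Of the 11 conjugation and ATG4 genes, a mean of 9.33 ± 0.58 was marked in SD and 10 ± 1 in CR, with 10.7 ± 0.58 in HF, 4.67 ± 3.06 in YD and 8.33 ± 1.53 in RD. In the ATG8 and cargo receptor group, 5 of the 6 genes were marked in every SD, YD and RD library. The 5 ULK complex genes were all marked in every CR, HF and RD mouse and 3.67 ± 0.58 of them in YD. The 4 PI3-kinase complex genes were all marked in every HF and RD mouse and 2 ± 1 of them in YD. For the 10 TFEB and lysosome genes the mean ran from 7.67 ± 1.53 in YD to 9.67 ± 0.58 in HF, and for the 5 ATG9, ATG2 and WIPI genes from 3.33 ± 0.58 in YD to 5 in HF.

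**Figure D2:**
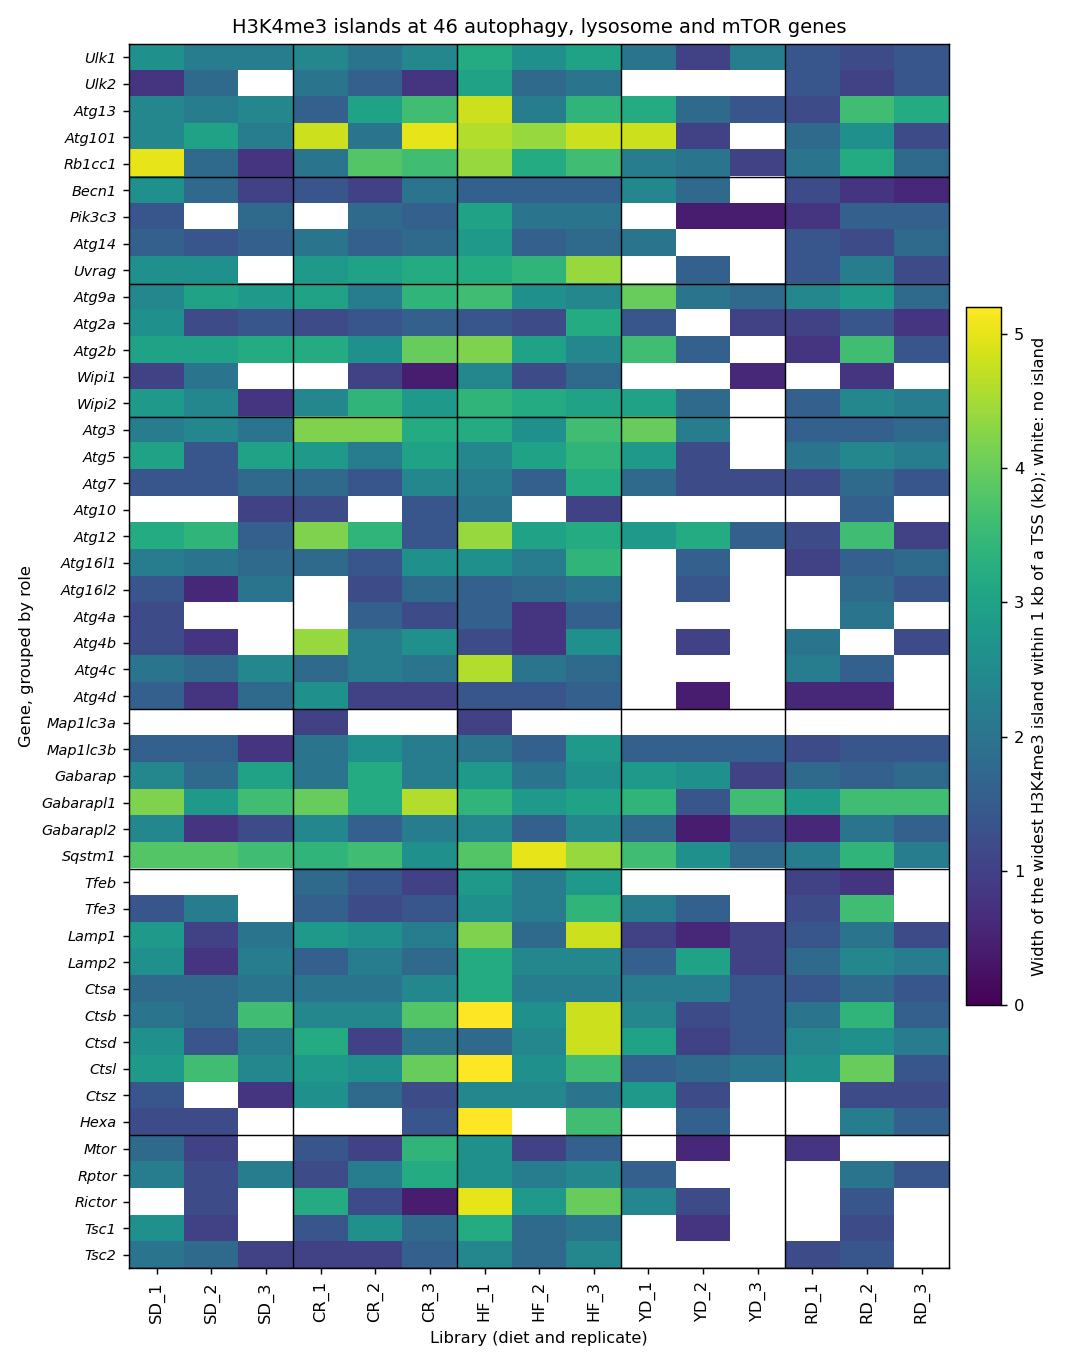
Width in kb (colour, 0 to 5.2) of the widest H3K4me3 island within 1 kb of a TSS for the 46 genes (rows, lines between role groups: ULK complex, PI3-kinase complex, ATG9/ATG2/WIPI, conjugation and ATG4, ATG8 and cargo receptor, TFEB and lysosome, mTOR) in 15 libraries (columns, lines between diets). White cells have no island. They are most frequent in the YD columns, and the rows with fewest islands are Map1lc3a (2 of 15), Atg10 (6), Atg4a (7), Tfeb and Hexa (8 each) and Wipi1 (9).

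Promoter sequences of 3 genes are shown: Tfeb, as the gene called in HF against SD, and Ctsd and Ctsa, for comparison, as lysosomal protease genes marked in every list whose promoters carry the palindrome TCACGTGA, the core of the element through which TFEB binds its targets. The Tfeb windows were chosen after its values were seen. Each window runs from 250 bases before to 50 after a RefSeq start, on the gene's strand, in the RefSeq promoter set for GRCm38.p6, the same assembly as mm10. The capitals mark TCACGTGA in Ctsd and Ctsa and every CG dinucleotide in Tfeb.
Ctsd, chr7:142387778-142388077, minus strand: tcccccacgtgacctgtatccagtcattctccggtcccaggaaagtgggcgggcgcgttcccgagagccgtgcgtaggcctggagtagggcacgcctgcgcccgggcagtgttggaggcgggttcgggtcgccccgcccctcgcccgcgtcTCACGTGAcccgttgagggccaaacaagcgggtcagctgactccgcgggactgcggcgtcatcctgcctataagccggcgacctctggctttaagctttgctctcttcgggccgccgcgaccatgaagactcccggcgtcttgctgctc
Ctsa, chr2:164833523-164833822, plus strand: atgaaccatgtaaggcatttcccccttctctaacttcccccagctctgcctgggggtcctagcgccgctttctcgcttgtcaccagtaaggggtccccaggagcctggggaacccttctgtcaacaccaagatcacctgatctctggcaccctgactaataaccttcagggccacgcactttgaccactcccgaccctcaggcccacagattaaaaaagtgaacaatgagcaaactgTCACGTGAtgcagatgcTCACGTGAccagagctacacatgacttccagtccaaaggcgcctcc
Tfeb, chr17:47736787-47737086, plus strand: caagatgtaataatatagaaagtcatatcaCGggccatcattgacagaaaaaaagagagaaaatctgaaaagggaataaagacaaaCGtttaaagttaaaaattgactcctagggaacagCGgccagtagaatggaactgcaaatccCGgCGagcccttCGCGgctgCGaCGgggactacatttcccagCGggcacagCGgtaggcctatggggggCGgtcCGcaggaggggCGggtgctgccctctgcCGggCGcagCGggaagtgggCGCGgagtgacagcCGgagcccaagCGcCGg
Tfeb, chr17:47737681-47737980, plus strand: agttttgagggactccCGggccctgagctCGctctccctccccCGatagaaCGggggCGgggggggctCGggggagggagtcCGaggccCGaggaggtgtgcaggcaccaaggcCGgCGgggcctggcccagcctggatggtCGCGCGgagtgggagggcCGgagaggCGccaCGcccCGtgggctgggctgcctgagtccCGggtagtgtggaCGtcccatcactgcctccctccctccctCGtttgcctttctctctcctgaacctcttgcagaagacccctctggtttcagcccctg
Ctsd codes for the aspartic protease cathepsin D and Ctsa for cathepsin A, which protects lysosomal sialidase. Islands overlapped the windows shown of Ctsd and Ctsa in all 15 lists. The Tfeb windows shown hold 22 and 20 CG dinucleotides and were overlapped by islands in 6 and 8 lists. The Ctsa window was picked for the palindrome and the Tfeb windows for an overlapping island. A further Ctsa window, chr2:164832622-164832921, without TCACGTGA, was overlapped in 11 lists. A further Tfeb window, chr17:47785494-47785793, with 6 CG dinucleotides, was overlapped in 0 lists.

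Across the 39 genes that the promoter set holds, with 45 windows, the letters CACGTG were found in 8 windows (17.8%), against 7.91% of 21045 windows of protein-coding genes. The genes were Atg3, Atg5, Atg7, Atg14, Ctsa, Ctsd, Ctsl and Lamp1. The Atg7 window, chr6:114670846-114671145, lies away from its most covered TSS at 114643097 and was overlapped by an island in 0 lists. The Lamp1 window was overlapped in 4 lists. TCACGTGA, which contains CACGTG, was found in 3 windows (6.67%), those of Atg3, Ctsa and Ctsd, against 1.24% of all windows, and the full palindromic CLEAR element, which contains both, in 0 against 0.423%. All of these read the same on both strands. The median window of the 45 held 20 CG dinucleotides and 60.7% GC, and that of all protein-coding genes 13 and 56.7%. These letter matches are a description of the sequence and say nothing of binding. The promoter set does not hold Rb1cc1, Pik3c3, Ctsb, Map1lc3a, Atg16l1, Becn1 or Atg12.

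The islands reached farther into the gene than away from it. In the lists whose island covered it, and by medians, 40 of the 46 genes had an island that extended farther downstream than upstream of the most covered TSS, and over the genes the median extent was 565.5 bp upstream and 1342.5 bp downstream. The lysosomal membrane genes Lamp1 and Lamp2, singled out after their values were seen, were marked in all 15 lists, yet a TSS lay inside the island in 4 and 2 lists. The Lamp1 island began a median of 240 bp and ended 2239 bp downstream of the TSS. The 4 libraries with an island over the Lamp1 start were CR mice 1 and 2 and HF mice 1 and 3, each from chr8:13158801, that is 360 bp before the TSS. Over Lamp2 they were CR mouse 1 and HF mouse 1. At 11 of the 46 genes the island also lay within 1 kb of a TSS of another protein-coding gene, in every list that had it, so that the mark cannot be assigned to either gene. These pairs are Atg2b and Gskip, Atg3 and Slc35a5, Atg4a and Psmd10, Atg4b and Thap4, Atg9a and Ankzf1, Atg12 and Ap3s1, Atg13 and Harbi1, Sqstm1 and Mgat4b, Ctsa and Neurl2, Hexa and Tmem202, and Tsc2 and Nthl1. At Atg4b the median island ran from -1504 to -305 bp relative to the TSS, upstream of the start.

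Tfeb, the transcription factor that activates lysosomal and autophagy genes, was the gene whose width differed in both HF comparisons. No SD and no YD liver had an island at Tfeb. The CR mice had islands of 1800, 1400 and 1000 bp, the HF mice of 2800, 2200 and 2800 bp, and the RD mice of 1000 and 800 bp with none in mouse 3. Every HF island was wider than every CR island, and every CR island was at least as wide as the RD islands. Their score ranks were 47.8, 62.1 and 45.9 in CR, 75.6, 71.6 and 64.2 in HF, and 54.8 and 43.1 in RD, so they sat in the middle to upper part of their lists.

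The islands lay at one end of the gene, which spans chr17:47737030-47792419 on the plus strand. The narrowest, in RD mouse 2, covered chr17:47737401-47738200, and the widest of the CR islands chr17:47737001-47738800. In HF they covered chr17:47736401-47739200, chr17:47737001-47739200 and chr17:47737001-47739800, which takes in the 4 annotated starts of that cluster at 47737030, 47737600, 47737928 and 47738903. The annotated starts farther downstream had no island, apart from the one at 47769238 in HF mouse 1, where an island covered chr17:47769201-47770400.

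**Figure D3:**
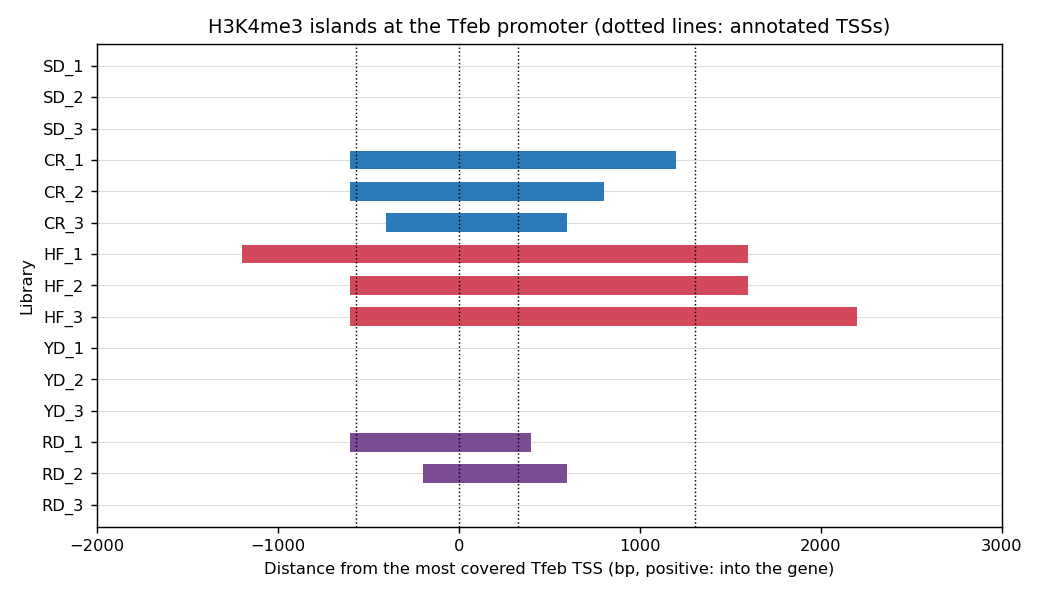
Extent of the widest H3K4me3 island at Tfeb in each of 15 libraries (rows), as distance in bp from the most covered TSS (x axis, positive into the gene). Dotted lines mark annotated TSSs. Bars are present in 3 CR, 3 HF and 2 RD libraries, are longest in HF, and are absent from SD and YD.

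Differences in width were tested with limma on log2(width + 200 bp), with no island taken as a width of 0, over 11200 protein-coding genes with an island in at least 3 lists and with Benjamini-Hochberg adjustment over all of them. Of the 46 genes, 45 entered and Map1lc3a did not. A difference on this scale is an index of presence and width together, and it depends on the 200 bp added where a group has no island. Tfeb was higher in HF than in SD by 3.80 ± 0.58 (SE, adjusted p = 0.00166, limma) with islands in 3 of 3 against 0 of 3 mice. It was the only gene of the 45 called in that comparison, in which 3.04% of all genes were called higher. Against the mean of the other 4 diets Tfeb was higher in HF by 2.65 ± 0.46 (adjusted p = 0.00296, limma), again the only gene of the 45, where 13.2% of all genes were called higher. In CR against SD the difference was 2.97 ± 0.58 (adjusted p = 0.0777, limma) and in RD against SD 1.64 ± 0.58 (adjusted p = 0.292, limma), neither past the threshold. By score rank Tfeb was higher in HF than in SD by 70.5 ± 11.7 points (adjusted p = 0.0154, limma), the only gene of the 45 called, beside 1.10% of all genes called higher.

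After each library was centred on its own mean, the difference in width between HF and SD was 2.93 ± 0.61 (adjusted p = 0.0423, limma), while the width difference from the other 4 diets fell to 1.39 ± 0.48 (adjusted p = 0.226, limma), and neither score rank difference was called (adjusted p = 1.00 and 0.999). Without HF mouse 1 the width difference was 3.75 (adjusted p = 0.0624, limma) and without HF mouse 3 it was 3.75 (adjusted p = 0.0559, limma). HF livers had islands at 4, 0 and 1 of 8 Kupffer cell and 6, 2 and 4 of 6 sinusoidal endothelial markers. At stellate cell markers they had 4, 1 and 2 of 6. The 12 other libraries had 0 or 1, 0 to 3 and 0 to 2 of these markers, ranges that held HF mouse 2. Cholangiocyte markers (1, 0 and 1 of 5) and lymphocyte markers (1, 0 and 0 of 6) in HF were within the ranges of the other libraries. HF also had 8 of 8 hepatocyte markers in every mouse. Its share of ever-marked genes was the highest, 85.4% against 38.0% to 72.4% in the other diets. The part of the other cell types in the HF values was not tested. The names of HF mice 2 and 3, CR mice 1 and 2 and RD mouse 1 have the form PATChIP in place of ChIP. No SD or YD library has that form. All 5 libraries of the PATChIP form had a Tfeb island. Of the 10 of the ChIP form, only CR mouse 3, HF mouse 1 and RD mouse 2 had one. With the name form as a term in the fit, Tfeb in HF was higher than in SD by 3.39 ± 0.66 (adjusted p = 0.0152, limma) and than in the other 4 diets by 2.39 ± 0.49 (adjusted p = 0.0125, limma). Among the 10 libraries of the ChIP form, a comparison chosen after the data were seen and with 1 HF mouse, the Tfeb difference was 3.91 (adjusted p = 0.932, limma, the lone mouse taken to vary like the others).

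Tfe3, which codes for the related factor TFE3, was not called in any comparison. Its islands measured 1400 and 2200 bp in SD mice 1 and 2, 1600, 1200 and 1400 bp in CR, 2600, 2200 and 3400 bp in HF, 2200 and 1600 bp in YD mice 1 and 2, and 1200 and 3600 bp in RD mice 1 and 2. Mouse 3 of SD, YD and RD had none.

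The mTOR group had the largest median difference of the 7 role groups in the corn comparison, in width. Mtor codes for the kinase, Rptor for RAPTOR of complex 1, Rictor for the defining subunit of complex 2, and Tsc1 and Tsc2 for the complex that turns off the mTOR activator RHEB. With YD and RD pooled against SD, CR and HF, 4 of these 5 genes were lower in width (Mtor, Rptor, Tsc1 and Tsc2), and all 5 were lower in score rank. The median width difference of the 5 was -2.08, and that of all 11200 genes -1.24. In score rank the median of the 5 was -46.5 points and that of all genes -25.7 points. Among 38 further mTOR pathway genes, 36 of them tested, the medians were -1.40 in width and -26.2 points in score rank, close to those of all genes. In this comparison 39.6% of all genes were called lower in width and 38.2% in score rank. With libraries centred none of the 5 was called in either measure, and the width differences were -0.89 for Tsc1 (adjusted p = 0.369), -0.78 for Mtor (adjusted p = 0.443) and -0.89 for Tsc2 (adjusted p = 0.189, limma).

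The Tsc2 islands measured 2000, 1800 and 1000 bp in SD, 1000, 1000 and 1600 bp in CR, and 2400, 1800 and 2400 bp in HF. None of the YD mice had one, and the RD mice had 1200 and 1400 bp with none in mouse 3. Tsc2 width was lower in YD than in SD: the difference was -3.12 ± 0.66 (adjusted p = 0.0138, limma), the only width call among the 5 mTOR genes there, in a comparison with 7.04% of all genes called lower in width. Tsc2 shares its promoter with the DNA repair gene Nthl1, so its values are those of both genes.

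The Tsc1 islands measured 2600 and 1000 bp in SD mice 1 and 2, 1400, 2600 and 1800 bp in CR, and 3200, 1800 and 2000 bp in HF. The corn-fed mice had 1, of 800 bp, among the 3 YD livers and 1, of 1200 bp, among the 3 RD livers. Mtor showed the same division, with islands of 1800 and 1000 bp in SD mice 1 and 2, 1400, 1000 and 3400 bp in CR, 2600, 1000 and 1600 bp in HF, 600 bp in YD mouse 2 and 800 bp in RD mouse 1. The differences of the corn diets from the other 3 were -2.19 ± 0.63 for Tsc1 (adjusted p = 0.0188, limma) and -2.08 ± 0.59 for Mtor (adjusted p = 0.0171, limma). Each was absent from 4 of 6 corn-fed livers and from 1 of 9 others, SD mouse 3.

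Rptor was marked in 3 of 3 mice of SD, CR and HF. Its islands were 2200, 1200 and 2200 bp wide in SD, 1200, 2200 and 3200 bp in CR, 2600, 2200 and 2400 bp in HF, 1600 bp in YD mouse 1, and 2000 and 1400 bp in RD mice 2 and 3. Its score ranks were 73.8, 90.2 and 77.0 in SD, 29.5 in the marked YD mouse, and 61.8 and 32.9 in the marked RD mice. The rank difference was -70.5 ± 15.1 points between YD and SD (adjusted p = 0.0206, limma) and -56.8 ± 9.76 between corn and the other diets (adjusted p = 0.00221, limma). Rictor ran otherwise. It had an island in 1 SD mouse (1200 bp), in all CR mice (3200, 1200 and 400 bp) and HF mice (5000, 2800 and 4000 bp), in YD mice 1 and 2 (2400 and 1200 bp) and in RD mouse 2 (1400 bp). The HF ranks of 66.3, 73.5 and 80.7 exceeded all others except the CR mouse at 90.3. HF was higher than the other 4 diets by 48.8 ± 12.6 points in rank (adjusted p = 0.0384, limma), which with Tfeb made 2 of the 45 genes called, beside 6.24% of all genes called higher. The Rictor call was kept in 9 of 22 alternatives, in which the difference ran from 17.3 to 60.9 points and the adjusted p from 0.0168 to 0.999.

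**Figure D4:**
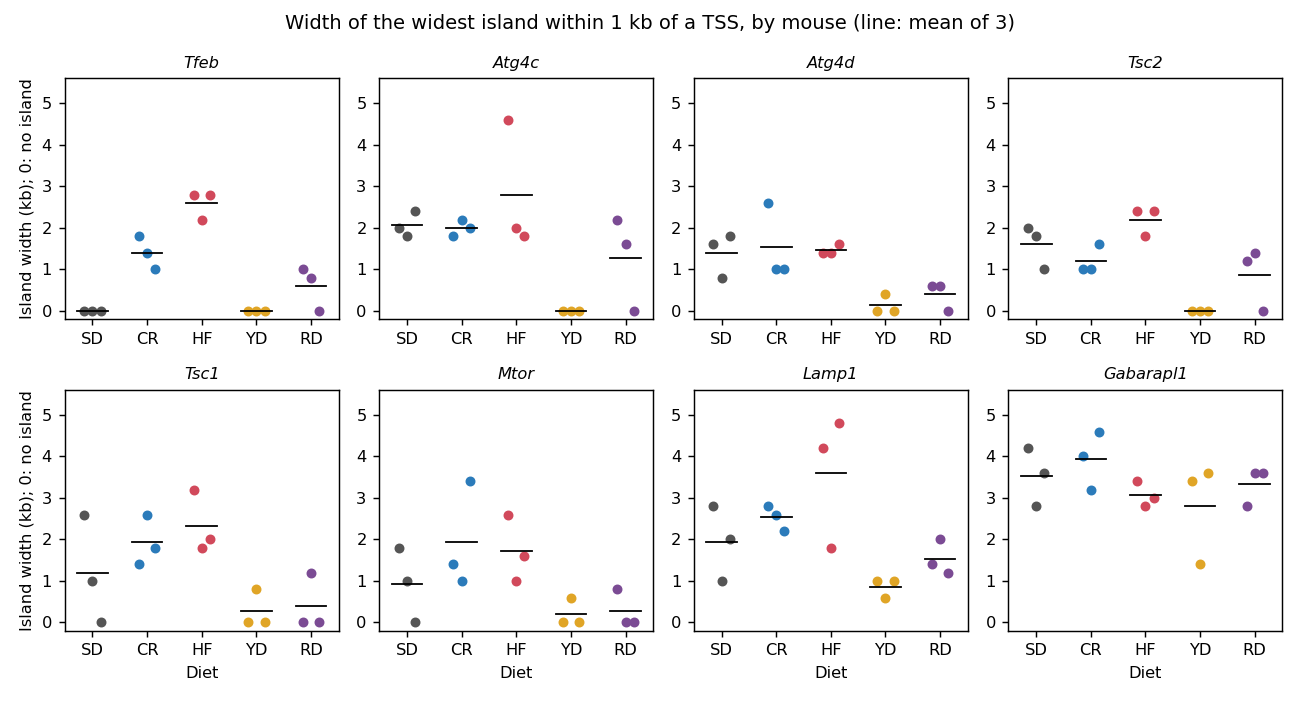
Width in kb of the widest island within 1 kb of a TSS (y axis, 0 for no island) in each mouse, by diet (x axis), for 8 genes. Points are mice and the line is the mean of 3. Tfeb is at 0 in SD and YD and highest in HF. Atg4c and Tsc2 are at 0 in YD. Gabarapl1 is above 1 kb in every mouse.

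Among the conjugation and ATG4 genes, 3 of 11 were lower in width and 4 of 11 in score rank with the corn diets, where 39.6% and 38.2% of all genes were. ATG4 enzymes cut ATG8 precursors and release ATG8 from membranes. Atg4c had islands of 2000, 1800 and 2400 bp in SD, 1800, 2200 and 2000 bp in CR, 4600, 2000 and 1800 bp in HF and 2200 and 1600 bp in RD mice 1 and 2. No YD mouse had one. YD differed from SD by -3.49 ± 0.74 in width (adjusted p = 0.0143, limma), from islands in 3 of 3 against 0 of 3 mice, and by -65.1 ± 16.3 points in score rank (adjusted p = 0.0353, limma). The corn diets differed from the other 3 by -2.45 ± 0.48 in width (adjusted p = 0.00285, limma).

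Atg4d islands measured 1600, 800 and 1800 bp in SD, 2600, 1000 and 1000 bp in CR and 1400, 1400 and 1600 bp in HF, but 400 bp in the 1 marked YD mouse and 600 bp in each of the 2 marked RD mice. All 3 corn-diet islands were narrower than every island of the other diets. YD was lower than SD (-2.41 ± 0.64, adjusted p = 0.0387, limma) and corn lower than the other diets (-2.06 ± 0.42, adjusted p = 0.00344, limma). Atg4a, on chromosome X, was marked in all HF mice (1600, 800 and 1600 bp), in SD mouse 1 (1200 bp), CR mice 2 and 3 (1600 and 1200 bp) and RD mouse 2 (2000 bp), and in no YD mouse. No width or rank difference of Atg4a passed the threshold.

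Atg16l1 and Atg5 code for partners of the complex that places LC3 on membranes. Atg16l1 had islands of 2200, 2000 and 1800 bp in SD, 1800, 1400 and 2600 bp in CR, 2600, 2200 and 3400 bp in HF, 1600 bp in YD mouse 2 and 1000, 1600 and 1800 bp in RD. Its rank was lower in YD than in SD: the difference in points was -67.1 ± 14.6 (adjusted p = 0.0214, limma). Atg5 had islands of 3000, 1400 and 3000 bp in SD, 2800, 2200 and 3000 bp in CR, 2400, 3000 and 3400 bp in HF, 2800 and 1200 bp in YD mice 1 and 2, and 2000, 2400 and 2200 bp in RD. YD mouse 1 kept a broad island of lower rank, 46.9 against 83.0, 78 and 82.9 in SD, and the difference in rank was -53.7 ± 12.1 points (adjusted p = 0.0239, limma). With Rptor and Atg4c these made 4 of 45 genes lower in rank in YD, beside 6.36% of all genes. In width, 3 of 45 were lower (Atg4c, Atg4d and Tsc2), beside 7.04% of all genes. With libraries centred none of these calls remained.

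Atg12, which codes for the ubiquitin-like protein joined to ATG5, was among the 3 widest of the genes marked in all lists. Its islands were 3200, 3400 and 1600 bp in SD, 4200, 3400 and 1400 bp in CR, 4400, 3000 and 3200 bp in HF, 2800, 3200 and 1600 bp in YD and 1200, 3600 and 1000 bp in RD. Atg7, the E1-like enzyme of both conjugation pathways, was among the 3 narrowest, with 1400, 1400 and 1800 bp in SD, 1800, 1400 and 2400 bp in CR, 2200, 1600 and 3200 bp in HF, 1800, 1200 and 1200 bp in YD and 1200, 1800 and 1400 bp in RD. The diets overlapped at both genes, and neither was called in any comparison.

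The ULK complex kept its islands in most livers, apart from Ulk2, a kinase close to ULK1. Ulk2 had islands of 800 and 1800 bp in SD mice 1 and 2, 2000, 1600 and 800 bp in CR, 3000, 1800 and 2000 bp in HF, none in YD, and 1400, 1000 and 1400 bp in RD. RD and YD differed at Ulk2 by 2.86 ± 0.68 in width, with islands in 3 of 3 against 0 of 3 mice (adjusted p = 0.0654, limma), which did not pass the threshold. Ulk1 was marked in all lists, at 1000 to 3200 bp. With the corn diets 2 of the 5 ULK complex genes were called lower in width and 1 in score rank. Over all genes 39.6% and 38.2% were. Ulk1 was 1 of the 2 called in width, at -0.68 ± 0.26 (adjusted p = 0.0498, limma), a smaller difference than the median of all genes.

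In the PI3-kinase complex, which makes the phosphatidylinositol 3-phosphate that recruits later factors, no gene was called. Uvrag, an alternative BECN1 partner and the most variable of the 4, had islands of 2600 bp in SD mice 1 and 2, 2800, 3000 and 3200 bp in CR, 3200, 3400 and 4400 bp in HF, 1600 bp in YD mouse 2, and 1400, 2200 and 1200 bp in RD. Every RD island was narrower than every island in SD, CR and HF. In the ATG9, ATG2 and WIPI group no gene was called either. Wipi1, which codes for a phosphoinositide-binding protein of the forming autophagosome, was the most variable, with 1000 and 2000 bp in SD mice 1 and 2, 1000 and 400 bp in CR mice 2 and 3, 2400, 1200 and 1800 bp in HF, 600 bp in YD mouse 3 and 800 bp in RD mouse 2.

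The ATG8 family and the cargo receptor SQSTM1, also known as p62, gave no call in width. Sqstm1 measured 3800, 3800 and 3600 bp in SD, 3400, 3600 and 2600 bp in CR, 3800, 5000 and 4400 bp in HF, 3600, 2600 and 1800 bp in YD and 2200, 3400 and 2200 bp in RD. Gabarapl1 measured 4200, 2800 and 3600 bp in SD, 4000, 3200 and 4600 bp in CR, 3400, 2800 and 3000 bp in HF, 3400, 1400 and 3600 bp in YD and 2800, 3600 and 3600 bp in RD. These were the widest of the genes marked in all lists, with median widths of 3600 and 3400 bp, and the groups overlapped at both.

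Map1lc3b, the gene of the LC3 protein most used as an autophagosome marker, measured 1600, 1600 and 800 bp in SD, 2000, 2600 and 2200 bp in CR, 2000, 1600 and 2800 bp in HF, 1600 bp in each YD mouse and 1200, 1400 and 1400 bp in RD. Gabarapl2 measured 2400, 800 and 1200 bp in SD, 2400, 1600 and 2200 bp in CR, 2400, 1600 and 2400 bp in HF, 1800, 400 and 1200 bp in YD and 600, 2000 and 1600 bp in RD. Neither was called in any comparison. Map1lc3a, a paralogue of Map1lc3b, was the least marked of the 46 genes, with 1 island of 1000 bp in CR mouse 1 and 1 of 1000 bp in HF mouse 1, at score ranks of 54.3 and 48.3. Of this group, Gabarap was called in 1 comparison, lower in score rank with the corn diets (-19.1 ± 5.25 points, adjusted p = 0.0176, limma), a smaller fall than the median of all genes.

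The lysosomal genes other than Tfeb gave 1 call. Lamp1 islands measured 2800, 1000 and 2000 bp in SD, 2800, 2600 and 2200 bp in CR, 4200, 1800 and 4800 bp in HF, 1000, 600 and 1000 bp in YD and 1400, 2000 and 1200 bp in RD. Lamp1 was lower in width with the corn diets (-1.0 ± 0.32, adjusted p = 0.0263, limma), again less than the median of all genes. The cathepsin genes Ctsa, Ctsb, Ctsd and Ctsl were marked in every list at median widths of 2000, 2400, 2200 and 2600 bp, and none was called. With the corn diets Tfeb itself was lower (-1.44 ± 0.38, adjusted p = 0.0123, limma), a comparison in which SD, without an island, stands among the other diets.

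Over the 45 genes, the median difference had the direction of the whole genome in each comparison. In width it was smaller in size than that of all genes in 6 comparisons and larger in RD against YD, at 0.50 against 0.33, with 26 of 45 above. In score rank it was larger in RD against YD (15.2 and 9.25 points) and in CR against SD (6.62 and 5.75 points). In YD against SD the median width difference was -0.86 in the 45 genes and -1.08 in all genes, and 29 of the 45 lay above the median of all genes. With both corn diets against the others it was -0.91 and -1.24, with 31 of 45 above, and in HF against the other 4 diets 0.81 and 1.19, with 30 of 45 below. In RD against SD it was -0.09 and -0.53, with 32 of 45 above, and in HF against SD 0.51 and 0.64, with 26 of 45 below. CR and SD were close, at 0.17 and 0.19. After libraries were centred on their means, these medians were 0.32 and 0.10 in YD against SD, 0.39 and 0.05 with the corn diets, -0.44 and -0.07 in HF against the other diets, -0.37 and -0.24 in HF against SD and 0.56 and 0.11 in RD against SD. Their direction had turned, and no gene of the 45 was called with the corn diets or in YD against SD. Centring takes from each library its mean over all genes, those without an island included. A gene that differs in the same direction by less than that mean therefore changes sign by construction. The corn comparison called 11 of 45 genes lower in width and 12 of 45 in score rank, 24.4% and 26.7%, below the 39.6% and 38.2% of all genes. The comparisons against SD share the 3 SD livers.

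**Figure D5:**
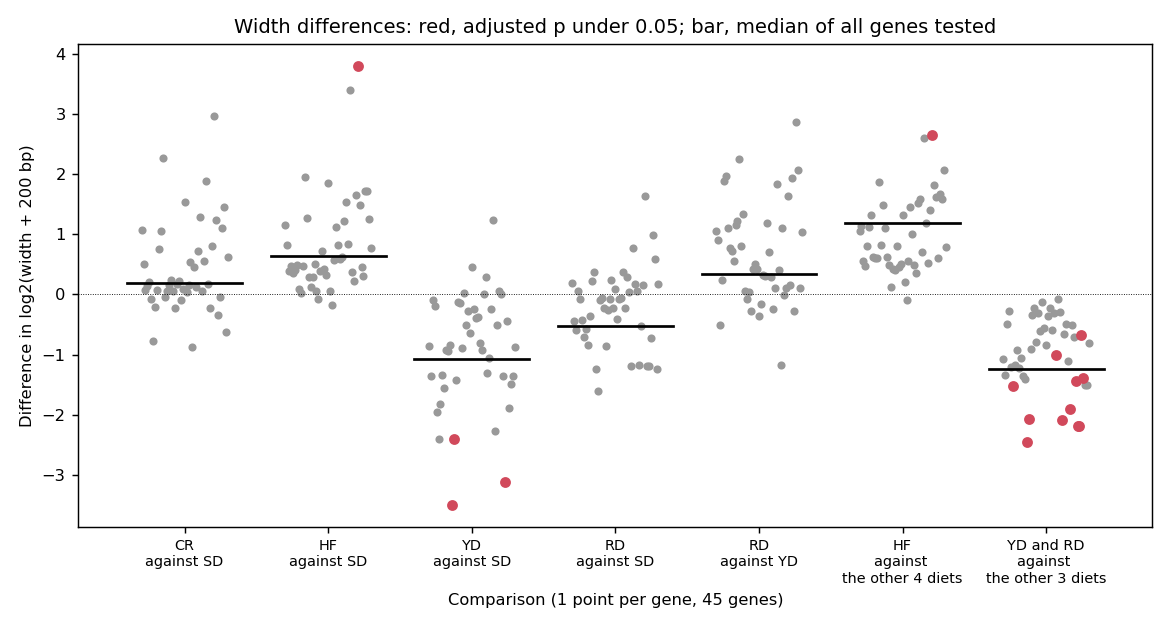
Difference in log2(width + 200 bp) for 45 genes (points) in 7 comparisons (x axis). Red points have an adjusted p under 0.05 (limma) and the bar is the median of all 11200 genes tested. Tfeb is the red point in both HF comparisons, and in the corn comparison all 45 points are below 0, around a median of all genes of -1.24. With libraries centred the median of the 45 is 0.39, where genes that fall less than the library mean turn positive by construction.

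No gene of the 45 was called in CR against SD, RD against SD or RD against YD. In width, limma at an unadjusted p under 0.05 picked 2, 2 and 6 of the 45 genes, beside 5.59%, 11.3% and 10.7% of all genes. In score rank it picked 2, 4 and 11, beside 6.31%, 9.52% and 13.8% of all genes. All genes called in width amounted to 0.196% higher in CR, 0.875% lower in RD against SD and 1.16% higher in RD against YD. In score rank they were 0.0714%, 0.125% and 1.75% in the same directions. In the opposite direction they were few in every comparison: in width 0.00893% in CR against SD, in HF against the other diets and with the corn diets, 0.0179% in HF and in RD against SD and 0.0268% in RD against YD, and in score rank 0.00893% in RD against SD and in HF against the other diets and 0.0179% in RD against YD and with the corn diets, with 0 of the 45 genes in each. The presence of an island alone, tested with the two-sided Fisher exact test over 10985 genes of which 29 are in the list, gave 0 of 29 for HF against the other diets, where 0.0% of all genes were called and 10.6% had an unadjusted p under 0.05, 0 of the 29 among them. With 3 HF against 12 other livers the smallest unadjusted p over all genes was 0.0022 (Fisher exact test). A gene marked in 3 of 3 HF and 7 of 12 other livers, such as Mtor, had 0.505. Atg4a, with 3 of 3 and 4 of 12, had 0.0769 and Tfeb, with 3 of 3 and 5 of 12, had 0.2 (Fisher exact test). The test therefore could not call higher in HF any gene with islands in 7 or more lists. This holds for the 23 of the 29 with 10 to 14 lists and for Tfeb, and leaves Atg10 and Map1lc3a. The smallest adjusted p over all genes was 0.26 (Fisher exact test), so 0 of 29 is no result about these genes. For the corn diets the Fisher test gave 0 of 29, where 0.455% of all genes were called lower. Only the smallest unadjusted p, 0.0002 (Fisher exact test, adjusted p = 0.0439), passed. A gene lower with the corn diets reaches it only when marked in 9 of 9 other livers and 0 of 6 corn-fed livers. The test therefore could not call lower any gene with a number of lists other than 9, and of the 29 only Wipi1 has 9. In the corn comparison 4 of the 29 and 27.0% of all genes had an unadjusted p under 0.05. The smallest adjusted p of the 29 was 0.0892 (Fisher exact test), shared by Atg4c and Tsc2, each marked in 9 of 9 livers of the other diets and 2 of 6 corn-fed livers.

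Counted without a test, 5 of the 46 genes (10.9%) had an island in all 3 mice of some diet and in none of another: Tfeb, Atg4a, Atg4c, Ulk2 and Tsc2. Over all ever-marked protein-coding genes this held for 25.6%. With islands in at least 2 mice of the diet named first and none of the second counted as gained, Tfeb was gained in CR, HF and RD against SD, where 2.98%, 7.83% and 0.368% of genes were, and 0 of the 46 were lost (0.56%, 0.123% and 6.53% of genes). In YD against SD, Atg4c, Ulk2 and Tsc2 were lost (15.8% of genes) and 0 of the 46 gained (0.0613%). In RD against YD, 4 genes were gained (Tfeb, Atg4c, Ulk2 and Tsc2; 6.36% of genes) and 0 lost (0.406%). Requiring 3 mice against 0 left Tfeb gained in CR (0.521% of genes) and HF (3.04%), Atg4c and Tsc2 lost in YD (5.83%) and Ulk2 gained in RD against YD (1.82%). It left 0 of the 46 for the other directions, which held 0.0307% of genes lost in CR, 0.0153% lost in HF, 0.00767% gained in YD, 0.046% gained and 1.76% lost in RD against SD, and 0.046% lost in RD against YD.

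Other genes of the pathway, listed by function, are described by counts. Of 22 further autophagy genes a mean of 18.3 was marked in SD and 19.7 in CR, with 20.7 in HF, 14 in YD and 15.7 in RD. Of 40 further lysosomal genes the means were 28.3, 30.7, 36.0, 14.7 and 22.3, and of 38 further mTOR pathway genes 28, 30.7, 35.0, 16.0 and 20.3. In width, the corn comparison called 7 of 21 autophagy genes tested, 18 of 36 lysosomal genes and 17 of 36 mTOR genes lower, beside 39.6% of all genes. HF against SD called 0, 1 and 2 of them higher, beside 3.04% of all genes, and YD against SD 1, 4 and 2 lower, beside 7.04%.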

How the data were processed

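The authors aligned 50-base single reads to mm10 with BWA, removed unmapped, MAPQ-0, duplicate and non-chromosomal reads with SAMtools, and called islands in each library with SICER2 (fragment and window 200 bp, gap 400 bp, FDR under 0.05). The deposited score adds up, over the windows of an island, the negative natural log of the Poisson probability of each window. It was not scaled between libraries, so only its rank within a list was used. Libraries were grouped by the diet in the sample labels, and replicates are separate mice. Reads per library were recovered from single-window scores, assuming a mappable genome fraction of 0.74. They are an inference, and no counts per gene were used.

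Genes and TSSs are those of the GENCODE annotation of mm10 (139486 transcripts). Tests used limma 3.58.1 in R 4.3.3 with all 15 libraries, 5 diets and 1 shared spread, and Fisher's exact test in scipy 1.17.1, with a threshold of 0.05. Python 3.11.15, numpy 2.4.6, pandas 2.3.3 and matplotlib 3.10.9 were used. On simulated data for HF against the other 4 diets, over 11200 genes, the limma step recovered 96 of 100 genes changed 8-fold and 59 of 100 changed 4-fold, with 15 calls among 11000 unchanged genes. The changed genes were drawn from those with an island in all 15 lists, and no shift common to a library or diet was simulated. Recovery of differences in presence, such as that of Tfeb, and false calls under such shifts were therefore not measured. With 3 mice against 3, an exact permutation test of a single value cannot go below p = 0.1, so none is given.

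Every gene is accounted for by its number of lists. Values in every mouse are given for genes marked in all mice of a diet and none of another, genes called in a fit (at most 5 per comparison, by size), the 3 widest and 3 narrowest of those in all lists, those in 5 or fewer lists and, in a role group without any, the most variable. The genes and lists were chosen with earlier results of these data known. Alternatives were distance to the TSS, minimum width, equal numbers of islands, centring, the added width, summed width, library name form, replicate block and leaving out each library.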

Additional observations from a re-analysis of the deposited data

How the results depend on the processing

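Tfeb width in HF against SD was called in 20 of 24 alternatives and against the other 4 diets in 21 of 24. Many of these alternatives leave out a CR, YD or RD library, which leaves the difference between HF and SD at 3.80. With no Tfeb island in any SD mouse, its higher direction against SD was close to fixed. The call against SD was lost with equal numbers of islands (adjusted p = 0.0694, limma). It was also lost without HF mouse 1 (adjusted p = 0.0624) or HF mouse 3 (adjusted p = 0.0559, limma). Tfeb score rank against SD was called in 16 of 22 and against the other diets in 18 of 22. Other calls were kept less often: Rictor score rank in HF against the other diets in 9 of 22, Mtor score rank with the corn diets in 10 of 22, and in YD against SD Atg4d width in 10 of 24 and Atg4c score rank in 11 of 22. The other 14 single-gene calls recomputed were kept in 15 or more. None of the single-gene differences recomputed (Tfeb, Rictor, Atg4c, Atg4d, Tsc2, Atg16l1, Atg5, Rptor, Tsc1 and Mtor) turned direction under an alternative.

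The counts of called genes depended on how libraries were put on a common scale. Unless stated, the counts here and below stand without the share of all genes called under the same setting. A rise or fall in them is therefore not a result about these genes. With libraries centred, 0 genes were called in width in YD against SD, in HF against the other diets or with the corn diets, and 0 in score rank in these comparisons or in HF against SD. With the same number of highest-scoring islands from each list (7825), the counts in width were 0 in HF against SD, 0 in YD against SD, 2 in HF against the other diets and 5 with the corn diets, and in score rank 0, 0, 0 and 2. Over all genes, centring changed the higher and lower calls in width from 1481 and 1 to 75 and 4 in HF against the other diets, from 1 and 4432 to 12 and 56 with the corn diets, from 0 and 788 to 0 and 0 in YD against SD, and from 2 and 98 to 4 and 21 in RD against SD.

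Tested over genes with an island in all 15 lists, which leaves out Tfeb, the counts were 0, 0, 0 and 2 in width and 0, 0, 0 and 1 in score rank, in the same order. With a TSS required inside the island, width gave 2 in HF against SD and 3 in HF against the other diets, and score rank 4 in the latter. With 1000 bp added in place of 200 bp, width gave 5 in HF against the other diets. Among the 10 libraries of the ChIP name form, chosen after the data were seen, width gave 0, 1, 0 and 3 and score rank 0, 1, 0 and 6.

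The replicate numbers do not pair the mice, which are different animals. Over 30 same-numbered pairs the correlation of deviations averaged -0.005 and ran from -0.104 to 0.090, and 8 of 15 libraries correlated best with their own number. With the replicate number as a block, width in HF against the other diets gave 2 called genes in place of 1, and over all genes the calls went from 123 to 34 in HF against SD and from 15 to 7 in RD against SD in score rank.

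Leaving out 1 library at a time, genes called in width ranged from 0 to 1 in CR against SD, 0 to 1 in HF against SD (0 without HF mouse 1 or 3), 1 to 5 in YD against SD (1 without SD mouse 1, 5 without YD mouse 1), 0 to 1 in RD against SD, 0 to 3 in RD against YD (3 without RD mouse 3), 0 to 3 in HF against the other diets (0 without HF mouse 1, 3 without SD mouse 2, RD mouse 2 or RD mouse 3) and 8 to 17 with the corn diets (17 without YD mouse 1). In score rank they ranged from 0 to 1, 0 to 2 (0 without SD mouse 3, HF mouse 1 or HF mouse 2), 0 to 9 (0 without SD mouse 1, SD mouse 2 or YD mouse 3, 9 without SD mouse 3), 0 to 1, 0 to 2, 0 to 3 (0 without HF mouse 1) and 9 to 17 in the same order. Mean numbers of marked genes ranged from 37 to 41 (SD), 42 to 44 (CR), 44 to 45.5 (HF), 24.5 to 32 (YD) and 35 to 39.5 (RD).

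With a TSS inside the island, the mean number of marked genes was 33 (SD), 38 (CR), 41.7 (HF), 20 (YD) and 30 (RD), and with equal numbers of islands 33.3 (SD), 37.7 (CR), 42 (HF), 27.3 (YD) and 27 (RD). With a TSS inside, CR gained 4 (3.55% of genes) and lost 1 (1.06%) against SD, HF gained 3 (9.52%), YD lost 7 (16.3%), and RD gained 1 (0.558%) and lost 1 (7.47%), and RD gained 5 against YD (6.48%). With equal numbers of islands, CR gained 2 (3.35%), HF gained 3 (4.58%), YD gained 1 (0.537%) and lost 1 (9.16%), RD gained 1 (0.489%) and lost 3 (9.14%) against SD, and RD gained 0 (2.65%) and lost 3 (3.11%) against YD. Islands of at least 600 bp gave 5 lost in YD against SD (16.0% of genes) and 6 gained in RD against YD (6.46%). Requiring 3 of 3 against 0 of 3 mice gave 0 gained in RD against SD (0.046%) and 1 in RD against YD (1.82%). The causes of these changes were not tested.

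The lists hold islands past a threshold and no read counts per gene, so a gene without an island is one below the caller's limit in that library, not one without the mark.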
